A study of Rattus norvegicus with 6 samples.

Results

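Galanin (*Gal*), neuropeptide Y (*Npy*), vasoactive intestinal peptide (*Vip*) and PACAP (*Adcyap1*) are neuropeptide precursor genes, and *Galr1*, *Galr2*, *Npy1r*, *Npy2r*, *Vipr1* and *Vipr2* encode receptors for these peptides. The 10 genes were taken by symbol from an RNA-seq table of 22050 genes, and 8 of them have a row, all with whole-number counts. *Vipr1* was not analysed here. No row carries the symbol *Galr2*, but the row *LOC103690156* (ENSRNOG00000061733) is described in the table as galanin receptor type 2, and its values are given beside the others. The genes were chosen by their CPM values in SNI-NP and Sham, which were already known. Their differences between the groups are therefore descriptions, given with standard errors and without a test.

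RNA-seq was performed on 3 Sham and 3 SNI-NP libraries of tissue labelled spinal cord to ask which transcripts differ in neuropathic pain (NP). SNI is spared nerve injury, a surgery that cuts part of the sciatic nerve and leaves another branch intact. Sham rats underwent surgery without the injury. The study's methods give young adult male Sprague–Dawley rats for both groups. They list Sham and SNI groups without a vector beside groups given lentiviral vectors. No transgene, vector or drug is named for the sequenced samples, which are labelled control and SNI, but their RNA-seq section does not state its absence. The level of the cord, its side, the time after surgery and whether a library is 1 rat or pooled tissue are not given in the sources used here.

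Galanin, NPY, VIP and PACAP are cut from larger precursors, stored in dense-core vesicles and released from neurons. *Galr1*, *Npy1r* and *Npy2r* couple to inhibitory Gi/o proteins that lower cyclic AMP and open potassium channels. *Galr2* couples mainly to Gq, whereas *Vipr1* and *Vipr2* bind both VIP and PACAP and raise cyclic AMP through Gs. In the dorsal root ganglion (DRG), sensory neurons whose axons have been cut are known to raise these peptides, and they send central axons into the dorsal horn, where local inhibitory neurons also make NPY and galanin.

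The libraries held 16670760 to 18151156 estimated counts, so a gene with 0 counts could lie at up to 0.167 to 0.18 CPM, a limit that covers counting error only. CPM are counts per 1e6 of the library, with library sizes scaled by TMM factors. Markers of spinal tissue were present in every library, among them *Gfap* of astrocytes and the inhibitory neuron genes *Gad1* and *Slc6a5*. The libraries also held DRG neuron and peripheral myelin genes, with *Pmp22* of peripheral myelin at 15669 CPM in Sham against 626 CPM for *Gfap* and 47.5 CPM for *Gad1*. The tissue may therefore not be spinal cord alone, and the levels below cannot be assigned to the cord, its roots or ganglia. All 8 measured DRG markers passed the filter on low counts, none was at 0, and their summed level ran from 412 to 937 CPM in Sham and from 90.4 to 1266 CPM in SNI-NP. The library SNI-NP replicate 1 had the lowest DRG sum and is therefore also left out below.

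The promoters of the 3 precursor genes that were highest relative to Sham are shown first, because their sequence can be read beside the levels that follow. Each is the 250 bases before the annotated start in RefSeq (rat build GRCr8), 5′ to 3′ on the strand of the gene. The windows are chr1:210084573-210084822 on the minus strand for *Gal*, chr1:44470230-44470479 on the plus strand for *Vip* and chr4:80211861-80212110 on the plus strand for *Npy*. Capitals mark TGACG, the half-site of the cyclic AMP response element (CRE).
Gal: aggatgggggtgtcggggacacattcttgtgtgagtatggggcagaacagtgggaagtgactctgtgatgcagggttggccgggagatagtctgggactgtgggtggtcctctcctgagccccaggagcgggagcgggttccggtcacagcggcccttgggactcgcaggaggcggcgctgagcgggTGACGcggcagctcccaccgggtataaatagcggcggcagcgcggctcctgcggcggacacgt
Vip: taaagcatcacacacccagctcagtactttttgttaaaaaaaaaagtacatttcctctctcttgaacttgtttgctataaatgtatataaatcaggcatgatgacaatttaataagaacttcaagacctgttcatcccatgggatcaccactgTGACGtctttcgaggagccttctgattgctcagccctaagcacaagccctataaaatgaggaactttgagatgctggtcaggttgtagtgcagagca
Npy: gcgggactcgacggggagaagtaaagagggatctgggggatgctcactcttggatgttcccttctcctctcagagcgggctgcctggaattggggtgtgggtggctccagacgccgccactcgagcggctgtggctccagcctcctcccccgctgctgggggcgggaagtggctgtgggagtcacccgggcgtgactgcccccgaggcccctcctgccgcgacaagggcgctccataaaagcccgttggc
The motifs searched were the full CRE TGACGTCA, its half-site TGACG, the AP-1 site TGANTCA, the STAT site TTCNNNGAA and the TATA box TATAAA. The TATA box was searched on the gene strand and the others on both strands, and any full CRE also counts as a half-site. The *Gal* window held the half-site 63 bases before the start and TATAAA 41 bases before it. The *Vip* window held the half-site 97 bases before the start and TATAAA at 48, 165 and 175 bases. No letters of these motifs were found in the *Npy* window. The half-site is common, being in 18.2% of 33465 rat promoter windows of the same length, and TATAAA is in 8.06%. The full CRE, in 1.59% of windows, AP-1, in 6.34%, and STAT, in 7.67%, were in none of the 3 windows. The promoters of the other genes with a row by symbol were searched too and are not printed. Among them, *Npy1r* held the half-site 138 bases before the start, *Npy2r* an AP-1 site at 148 bases and *Adcyap1* TATAAA at 248 bases. *Galr1* and *Vipr2* held no letters of these motifs. A match describes letters and not a bound site.

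Among the precursors, *Gal* (ENSRNOG00000015156), whose peptide acts on galanin receptors, had 4.44, 3.83 and 3.14 CPM in Sham replicates 1 to 3 and 15.2, 25.4 and 29.9 CPM in SNI-NP replicates 1 to 3. The groups did not overlap, and the lowest SNI-NP library was above the highest Sham library. The means were 3.81 ± 0.65 CPM in Sham and 23.5 ± 7.55 CPM in SNI-NP (SD, n = 3 each), a fitted difference of 2.63 on the log2 scale (SE 0.28) or 6.17-fold. These levels rest on 54 to 74 counts per Sham library and 264 to 516 counts per SNI-NP library.

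*Npy* (ENSRNOG00000046449), the precursor of NPY, had 11.4, 7.89 and 10.3 CPM in Sham and 31.6, 55.2 and 43.1 CPM in SNI-NP. Here too the groups were apart, with SNI-NP replicate 1 again the lowest of its group. The mean was 9.87 ± 1.80 CPM in Sham and 43.3 ± 11.8 CPM in SNI-NP (SD, n = 3 each), a log2 difference of 2.13 (SE 0.24) or 4.39-fold.

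*Vip* (ENSRNOG00000018808), the precursor of VIP, had 0.540, 0.563 and 0.116 CPM in Sham and 2.24, 3.50 and 4.0 CPM in SNI-NP. It was the scarcest of these genes in Sham, at 9, 10 and 2 counts, against 39, 63 and 69 counts in SNI-NP. The groups did not overlap, and the log2 difference was 2.97 (SE 0.53), or 7.86-fold. That size leans on Sham replicate 3 with its 2 counts, and without that library the log2 difference was 2.52.

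*Adcyap1* (ENSRNOG00000049882), the precursor of PACAP, had 13.2, 15.6 and 20.0 CPM in Sham and 15.0, 31.0 and 25.8 CPM in SNI-NP. In this gene the groups overlapped, since SNI-NP replicate 1 lay between the Sham libraries while the other two were above all of them. The log2 difference was 0.56 (SE 0.28), or 1.47-fold, and it was 0.80 (SE 0.20) without SNI-NP replicate 1.

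**Figure D1:**
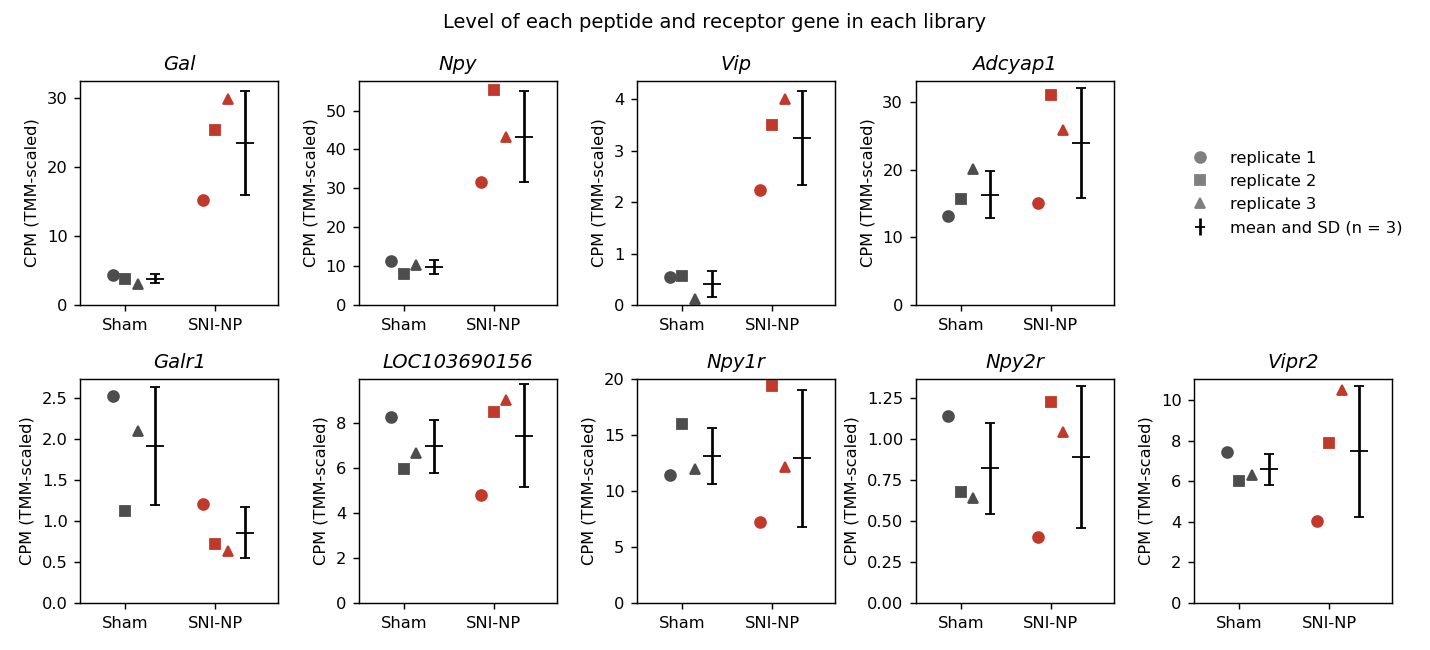
Level of each peptide and receptor gene in CPM (vertical axes, each from 0) in the 3 Sham and 3 SNI-NP libraries, with circle, square and triangle for replicates 1, 2 and 3 and a bar for the mean and SD. *Gal*, *Npy* and *Vip* are the panels in which every SNI-NP library lies above every Sham library. *Galr1* is the receptor whose SNI-NP mean lies furthest below that of Sham, at 0.856 against 1.91 CPM.

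Among the receptors, the inhibitory galanin receptor *Galr1* (ENSRNOG00000016654) had 2.52, 1.13 and 2.10 CPM in Sham and 1.21, 0.722 and 0.638 CPM in SNI-NP. SNI-NP replicate 1 lay just above Sham replicate 2, so the groups overlapped with TMM factors. With library totals alone those libraries stood at 1.16 and 1.17 CPM and the groups were apart. The mean was 1.91 ± 0.715 CPM in Sham and 0.856 ± 0.308 CPM in SNI-NP (SD, n = 3 each), a log2 difference of -1.15 (SE 0.44) that rests on 11 to 42 counts per library. Without Sham replicate 1 it was -0.92, under a 2-fold difference, and without SNI-NP replicate 1 it was -1.48 (SE 0.49).

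The galanin receptor type 2 row *LOC103690156* had 8.28, 5.97 and 6.69 CPM in Sham and 4.83, 8.50 and 9.04 CPM in SNI-NP. The SNI-NP libraries lay on both sides of the Sham range, and the log2 difference was 0.10 (SE 0.27).

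*Npy1r* (ENSRNOG00000014149), the Y1 receptor, had 11.4, 15.9 and 12 CPM in Sham and 7.25, 19.4 and 12.1 CPM in SNI-NP. *Npy2r* (ENSRNOG00000049213), the Y2 receptor that sits largely on nerve terminals, had 1.14, 0.676 and 0.640 CPM in Sham and 0.403, 1.22 and 1.04 CPM in SNI-NP. *Vipr2* (ENSRNOG00000004317), the VPAC2 receptor, had 7.44, 6.03 and 6.29 CPM in Sham and 4.03, 7.89 and 10.5 CPM in SNI-NP. In all 3 of these receptors SNI-NP replicate 1 was below every Sham library and SNI-NP replicate 2 was above every Sham library. Their log2 differences were -0.02 (SE 0.34), 0.12 (SE 0.51) and 0.18 (SE 0.34), and each changed sign when one or another SNI-NP library was left out. Their standard errors leave room for differences in either direction.

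SNI-NP replicate 1 was the lowest of its group in 8 of the 9 rows and the highest in *Galr1*. Over all 14426 genes tested it was the lowest in 32.5% and the highest in 41.4%. Without it, the log2 difference was 2.86 (SE 0.20) for *Gal*, 2.32 (SE 0.20) for *Npy* and 3.18 (SE 0.54) for *Vip*. These were all larger than with it, which follows from leaving out the lowest SNI-NP library. Over the same omission *Npy1r* stood at 0.26 (SE 0.25), *Npy2r* at 0.47 (SE 0.46) and *Vipr2* at 0.48 (SE 0.22), raised in the same way.

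**Figure D2:**
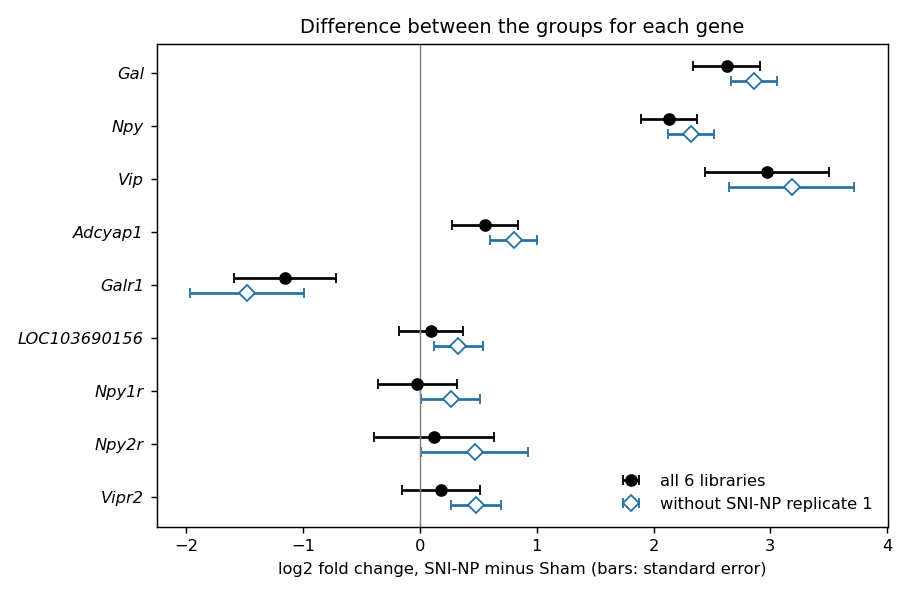
Fitted log2 difference between SNI-NP and Sham (horizontal axis) for each gene with all 6 libraries and without SNI-NP replicate 1, with bars for 1 standard error. *Vip*, *Gal* and *Npy* lie at 2.97, 2.63 and 2.13, *Galr1* at -1.15, and the other receptors within about 1 standard error of 0 when all libraries are used.

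All 8 genes passed the filter on low counts, *Vip* through its SNI-NP libraries, since its Sham libraries held 9, 10 and 2 counts. The groups did not overlap for *Gal*, *Npy* and *Vip* in the higher direction, beside 10.3% of all genes, and for none in the lower direction, beside 8.14%. Since the genes were picked for this contrast, nothing is read from these shares. By size of the fitted difference, *Vip* was 14th, *Gal* 20th and *Npy* 39th from the top of 14426 genes, *Adcyap1* was 564th, and *Galr1* was 215th from the bottom. These ranks come from the contrast the genes were picked for and are no separate result. Under a minimum of 10 counts in every sample, *Vip* had no value to rank.

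Levels of different genes can be set side by side only per length, for which the deposited FPKM values (fragments scaled to gene length and library size) serve. On that scale *Npy* was the highest of the 9 rows in all 6 libraries, with a mean of 17.4 FPKM in Sham and 74.6 FPKM in SNI-NP. In Sham it was followed by *Adcyap1* at 8.76 FPKM. Then came *LOC103690156* at 4.70, *Npy1r* at 4.62 and *Gal* at 4.57 FPKM, and these 3 did not differ beyond their spread. *Vipr2* at 1.54 FPKM stood below them, and *Galr1* at 0.857 and *Npy2r* at 0.720 FPKM were within their spread of each other. *Vip* was last in each Sham library, with a mean of 0.290 FPKM.

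In SNI-NP the order was different. *Gal* ranked 2 in each of the 3 libraries, with a mean of 27.6 FPKM, and *Adcyap1* came next with 12.5 FPKM. *Vip* ranked 6 in each, with a mean of 2.14 FPKM, next to *Vipr2* at 1.71 FPKM, and the ranges of the pair overlapped. *Galr1* had the lowest mean, 0.370 FPKM.

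Among 30 neuropeptide precursor genes, *Npy* ranked 6 by mean FPKM in Sham and 2 in SNI-NP, *Gal* ranked 12 and 5, and *Vip* ranked 23 and 13. *Calca*, the precursor of the sensory peptide CGRP, had the highest mean in both groups, at 198.9 FPKM in Sham and 166.2 FPKM in SNI-NP. In SNI-NP replicate 1, however, *Calca* ranked 4 and *Npy* ranked 1.

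**Figure D3:**
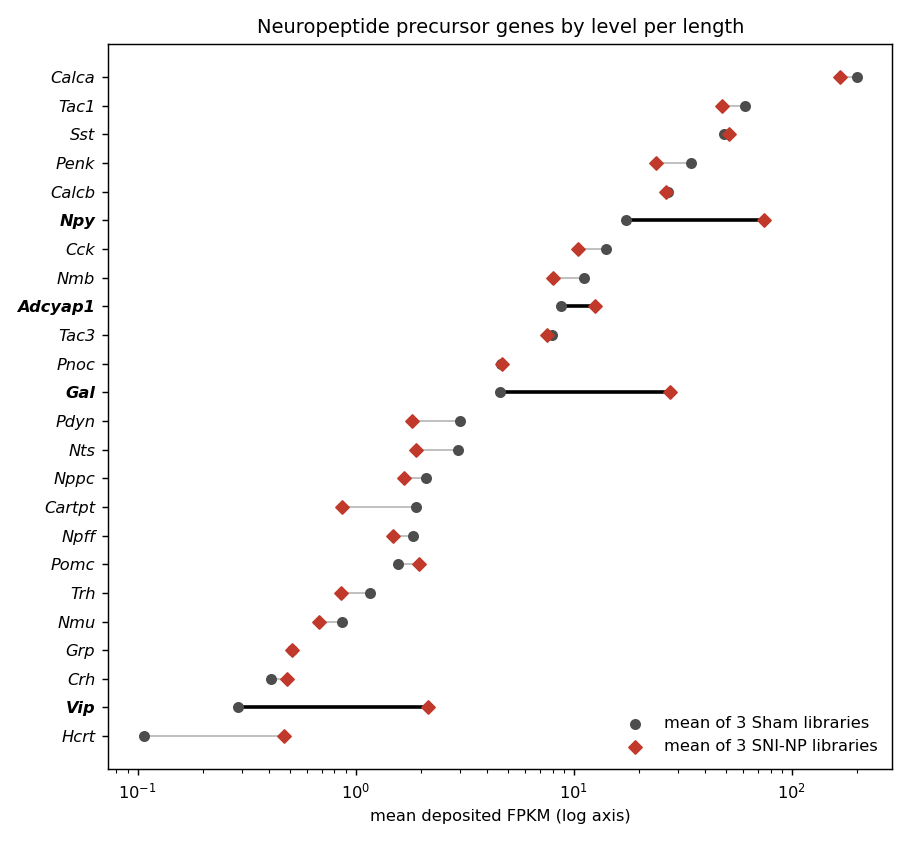
Mean FPKM (log axis) of 24 of the 30 neuropeptide precursor genes in 3 Sham libraries (circles) and 3 SNI-NP libraries (diamonds), leaving out genes under 0.1 FPKM in either mean. *Vip* (0.290 to 2.14), *Gal* (4.57 to 27.6) and *Npy* (17.4 to 74.6) lie well to the right in SNI-NP, with a gap of similar width for the scarce orexin precursor *Hcrt* (0.107 to 0.47).

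The level of each precursor was also divided by that of its receptor in the same library, on the FPKM scale, which follows from the levels above and is no separate result. *Gal* to *Galr1* was 4.70, 9.08 and 4.02 in Sham and 33.8, 94.9 and 125 in SNI-NP, the spread within SNI-NP coming from both genes. *Gal* to *LOC103690156* was 0.951, 1.15 and 0.839 in Sham and 5.61, 5.23 and 5.42 in SNI-NP. That ratio was nearly the same in all SNI-NP libraries, including replicate 1, in which both genes were lowest.

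*Npy* to *Npy1r* was 5.06, 2.50 and 4.26 in Sham and 22.1, 14.4 and 17.2 in SNI-NP. *Vip* to *Vipr2* was 0.221, 0.283 and 0.0548 in Sham and 1.61, 1.28 and 1.10 in SNI-NP, so the precursor lay below its receptor in each Sham library and above it in each SNI-NP library. *Adcyap1* to *Adcyap1r1*, the PAC1 receptor for PACAP, overlapped between groups, at 0.333, 1.14 and 0.667 in Sham and 0.521, 1.64 and 1.35 in SNI-NP.

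The tissue is a mixture, and in bulk RNA fewer cells of a type and less RNA per cell cannot be told apart. None of the 8 DRG neuron markers had an unadjusted p under 0.05 in edgeR, beside 4.91% of all genes higher and 5.94% lower. Their log2 differences ran from -0.03 to 0.29, with standard errors of 0.64 to 0.97 that leave room for differences in either direction. Their sum was 412, 805 and 937 CPM in Sham and 90.4, 1266 and 922 CPM in SNI-NP, with SNI-NP replicate 1 far below the rest. *Gal* per 100 CPM of these markers was 1.08, 0.476 and 0.335 in Sham and 16.8, 2.01 and 3.25 in SNI-NP. *Npy* per 100 CPM was 2.77, 0.979 and 1.10 in Sham and 35.0, 4.36 and 4.68 in SNI-NP. *Gal*, *Npy* and *Vip* were thus higher in every SNI-NP library than in every Sham library relative to the DRG markers, and also relative to 5 inhibitory neuron markers and 6 general neuron markers. These ratios hold the CPM values by which the genes were chosen and are no separate result. The share of all genes whose groups were apart on these scales was not computed. The denominators were chosen after the data were seen.

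*Adcyap1* relative to the general neuron markers was 0.609, 0.802 and 0.729 per 100 CPM in Sham and 1.06, 1.02 and 1.02 in SNI-NP. On this scale the groups were apart, whereas they overlapped in CPM and relative to the DRG and inhibitory markers. The denominator also varied, with a sum of 2168, 1945 and 2748 CPM in Sham and 1421, 3048 and 2519 CPM in SNI-NP. Of its 6 markers, *Snap25* of synaptic vesicle fusion was lower at an unadjusted p under 0.05 (log2 difference -0.65, adjusted p = 0.436 in edgeR).

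Several marker lists had lower medians in SNI-NP beside *Galr1*. The median log2 difference was -0.65 for motor neurons (4 of 5 markers below 0), -0.57 for astrocytes (5 of 5), -0.45 for inhibitory neurons (5 of 5) and -0.44 for oligodendrocytes (4 of 5). In these lists 1 marker had an unadjusted p under 0.05 in edgeR, *Slc1a2*, the glutamate transporter of astrocytes (log2 difference -1.08, adjusted p = 0.436). Among 5 excitatory neuron markers the median was -0.03, and *Slc17a6*, the vesicular glutamate transporter, had a log2 difference of -0.77 with an adjusted p of 0.307 in edgeR and 0.00678 in DESeq2. The inhibitory markers, to which *Galr1* was also related, summed to 416, 133 and 290 CPM in Sham and 248, 161 and 157 CPM in SNI-NP. *Galr1* per 100 CPM of these markers was 0.606, 0.845 and 0.722 in Sham and 0.487, 0.449 and 0.407 in SNI-NP, and the groups were apart. Relative to the DRG or general neuron markers they overlapped, as they did in CPM with TMM factors. These denominators too were chosen after the data were seen. *Galr1* was not divided by the other lists, and the part of any list in its level was not tested.

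The 5 peripheral myelin and Schwann cell markers were all higher in SNI-NP, by 0.14 to 0.36 on the log2 scale, 1 of them at an unadjusted p under 0.05 and none after adjustment in edgeR. Their sum ran from 19753 to 23514 CPM in Sham and from 22257 to 29308 CPM in SNI-NP, the highest being SNI-NP replicate 1. Of 4 markers of sympathetic and noradrenergic neurons, another known source of NPY, 2 passed the filter and none was at 0 in every library. The sum of the list was 4.62 to 6.69 CPM in Sham and 2.30 to 6.05 CPM in SNI-NP. The part of either list in the peptide levels was not tested.

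**Figure D4:**
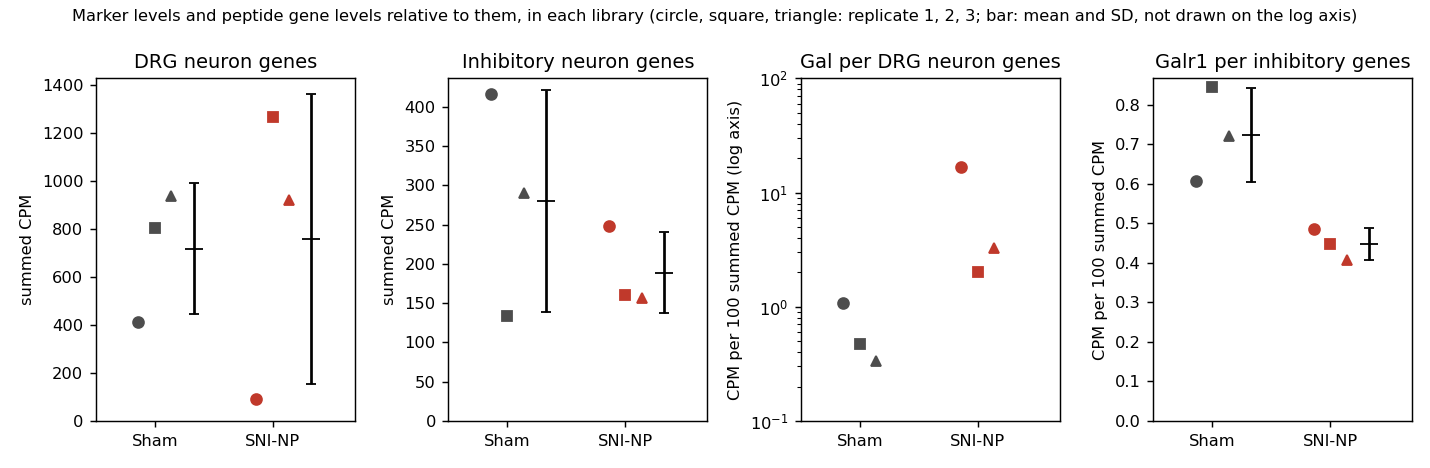
Summed CPM of DRG neuron and inhibitory neuron markers, and *Gal* and *Galr1* per 100 summed CPM of each (vertical axes), in each library, with bars for the mean and SD except on the log axis. SNI-NP replicate 1 (circle) has the lowest DRG marker sum, 90.4 CPM, and the highest *Gal* per 100 CPM of these markers, 16.8. *Galr1* is drawn only relative to the inhibitory markers, and its groups overlapped relative to the DRG or general neuron markers.

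Other genes of the same biology were tested in the edgeR fit over all 14426 genes, in which none passed an adjusted p of 0.05 and the smallest adjusted p was 0.116. DESeq2 called 101 genes at a fold above 2 and an adjusted p under 0.05, or 0.7% of genes. At an unadjusted p under 0.05 in edgeR, 4.91% of all genes were higher and 5.94% lower. With a fold above 2 as well, the shares were 0.742% and 1.53%. The list counts below are to be read beside those shares, and the list medians beside 0.0057, the median log2 difference over all genes tested. No share of all genes is given for the sign of a difference. Nor is one given for an unadjusted p alone with single libraries left out. Counts of those kinds describe the lists only.

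Of 20 related peptides and receptors, such as galanin receptor 3, the Y4 and Y5 receptors and the secretin and glucagon family, only 4 passed the filter on low counts and 6 were at 0 in all libraries. None of the 4 had an unadjusted p under 0.05, and all were lower in SNI-NP, with a median log2 difference of -0.45. The most abundant was *Adcyap1r1*, at 92.5 ± 44.4 CPM in Sham and 72.9 ± 17.4 CPM in SNI-NP (log2 difference -0.34, SE 0.37, adjusted p = 0.735 in edgeR). Without Sham replicate 2, 2 of the 4 had an unadjusted p under 0.05.

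Of 17 genes that cut, amidate, pack or degrade peptides, 16 were tested and 1 had an unadjusted p under 0.05. That gene was *Ece1*, an endopeptidase of the endosome and cell surface, at 177 ± 10.2 CPM in Sham and 215 ± 8.83 CPM in SNI-NP (log2 difference 0.28, adjusted p = 0.436 in edgeR). *Cpe*, the carboxypeptidase that trims peptide ends, was the most abundant by FPKM, though not by CPM, and stood at 425 and 415 CPM. The median log2 difference over the 16 was -0.22, and 12 were lower in SNI-NP. The number with an unadjusted p under 0.05 ran from 0 to 4 when libraries were left out one at a time, with 4 when Sham replicate 2 was omitted and 0 when SNI-NP replicate 3, Sham replicate 1 or Sham replicate 3 was omitted.

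All 32 genes of receptor signalling were tested, and 1 was higher and 3 lower at an unadjusted p under 0.05. *Gnai2*, an inhibitory G protein subunit and the most abundant of the list, stood at 419 ± 19.8 CPM in Sham and 492 ± 17.6 CPM in SNI-NP (log2 difference 0.23, adjusted p = 0.453 in edgeR). *Gnaq*, the Gq subunit, stood at 27.3 ± 2.99 and 18 ± 2.62 CPM (log2 difference -0.60, adjusted p = 0.348 in edgeR). *Prkacb*, a catalytic subunit of protein kinase A, and *Pde4d*, which breaks down cyclic AMP, had log2 differences of -0.35 and -0.67 (adjusted p = 0.443 for each in edgeR). The median of the 32 was -0.12. The count of 4 became 10 without Sham replicate 2, 2 without Sham replicate 1 and 1 without Sham replicate 3, SNI-NP replicate 2 or SNI-NP replicate 3.

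The list with the lowest edgeR p was that of 15 genes known for peptide induction after axon injury, of which 14 were tested, 2 were higher and 1 lower at an unadjusted p under 0.05. *Atf3*, a transcription factor of injured neurons, stood at 15.4 ± 2.82 CPM in Sham and 37.7 ± 3.09 CPM in SNI-NP (SD, n = 3 each), with a log2 difference of 1.29 (SE 0.16). Its adjusted p was 0.117 in edgeR and 2.11e-08 in DESeq2, the only call of DESeq2 in any of the 5 lists. *Jun*, its AP-1 partner, had a log2 difference of 0.31 and *Lifr*, the receptor for leukaemia inhibitory factor, of -0.53 (adjusted p = 0.436 and 0.336 in edgeR). *Cntf*, a cytokine of Schwann cells and the most abundant of the list, stood at 233 and 216 CPM. The median of the 14 was 0.0015, against 0.0057 over all genes tested.

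Of 26 other neuropeptide precursors, 17 were tested, none was higher and 1 lower at an unadjusted p under 0.05, and 13 had a log2 difference below 0, with a median of -0.30. *Cartpt*, the precursor of the CART peptide, stood at 1.57 ± 0.274 CPM in Sham and 0.738 ± 0.270 CPM in SNI-NP (log2 difference -1.08, SE 0.40, adjusted p = 0.436 in edgeR). *Calca* had 182 ± 55.0 CPM in Sham and 155 ± 116 CPM in SNI-NP (log2 difference -0.23, SE 0.69). The count of 1 became 4 without Sham replicate 2 and 0 without Sham replicate 3, SNI-NP replicate 1 or SNI-NP replicate 3.

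**Figure D5:**
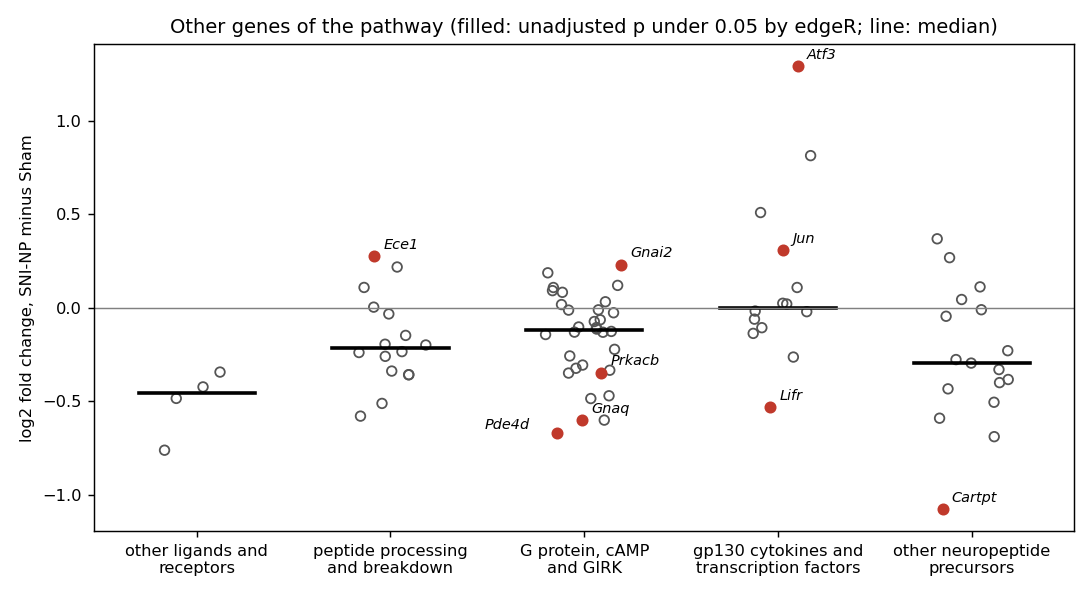
Fitted log2 difference between SNI-NP and Sham (vertical axis) for every tested gene of the 5 lists, 1 column of points per list, with a line at each median and filled, named points for genes at an unadjusted p under 0.05. *Atf3*, at 1.29, is the highest point, and the medians lie between -0.45 and 0.0015.

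The genes most like each of 4 members in pattern were found by Pearson's r of log2 CPM over the 6 libraries, which share 1 contrast and are given as a description. For *Gal* these were *Ssrp1* (r = 0.996), *Sugp1* (0.991) and *Cfap77* (0.990). For *Vip* they were *LOC680885* (0.993), *Slc52a3* (0.992) and again *Cfap77* (0.991), and for *Npy* they were *Tmem86a* (0.993), *Ubxn6* (0.990) and *LOC314140* (0.990). For *Galr1* they were *Zmat3* (0.997), *Hip1* (0.996) and *Tnr* (0.996). A high r says that the libraries fall in the same order and spacing and not that the change is as large. *Ssrp1* stood at 105 CPM in Sham and 118 CPM in SNI-NP, a log2 difference of 0.17, where *Gal* differed by 2.63. *Tnr*, tenascin R of the neural extracellular matrix, was closest in size to its member, at 25.2 and 12.7 CPM, a log2 difference of -0.99.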

How the data were processed

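RNA was extracted from spinal cord of 3 Sham and 3 SNI-NP samples. For each gene the authors deposited an estimated count, not normalized and rounded here, and an FPKM value, used here to set levels of different genes side by side. The submitters' processing notes name FastQC, STAR and HTSeq, the paper names the Rat6 genome, and the use of strand and the annotation release are not given in the sources used here. Of 22050 genes, 4542 had no count, and 11.5% of the others had a count that was not whole.

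Counts were filtered with filterByExpr, scaled by TMM and fitted in edgeR 4.0.16 (R 4.3.3) with the quasi-likelihood test, group as the only term and Benjamini-Hochberg adjustment over 14426 genes. The tests were checked on simulated data. Depth was 16670760 to 18151156 counts. Nothing says that replicates are separate animals, so p-values measure only the spread between these samples, which may be technical.

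The 10 genes and all lists were chosen with earlier results of these data known. Named beside them were up to 3 genes per list and direction with the smallest unadjusted p under 0.05, each list's most abundant gene by FPKM, and for 4 members the 3 genes with the highest r. Other genes named as context were chosen after their values were seen. Promoters are from RefSeq GRCr8, and all 10 symbols matched. Alternatives were DESeq2 version 1.42.0, other scalings and filters, FPKM ratios, the replicate number as a block and leaving out each library. Marker covariates were added after seeing the data. A few items of the marker lists are not reported here and were left out of the lists.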

Additional observations from a re-analysis of the deposited data

How the results depend on the processing

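Leaving out one library at a time, the log2 difference was 2.39 to 2.86 for *Gal*, 1.92 to 2.32 for *Npy*, 2.52 to 3.29 for *Vip*, -1.48 to -0.92 for *Galr1* and 0.33 to 0.80 for *Adcyap1*. Under the other alternatives it was 2.58 to 2.72, 2.10 to 2.29, 2.88 to 3.02, -1.33 to -1.14 and 0.51 to 0.70. *Npy1r*, *Npy2r*, *Vipr2* and *LOC103690156* ran from -0.44 to 0.26, -0.18 to 0.47, -0.17 to 0.48 and -0.09 to 0.33 without single libraries. Under a minimum of 10 counts in every sample, *Vip* and *Npy2r* gave no value. Depth limits *Vip* in Sham, *Galr1* and *Npy2r* most.

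Genes past a fold of 2 and an adjusted p of 0.05 numbered 0 in edgeR, 101 in DESeq2 and 0 to 206 when single libraries were left out, with 206 without SNI-NP replicate 1 and 2 without Sham replicate 2. At an unadjusted p the 327 genes became 258 to 804, the most without SNI-NP replicate 1, 446 with no filter and 241 with a minimum of 10 counts. In the same omissions the lists ran from 0 to 2 (related peptides and receptors), 0 to 4 (processing), 1 to 10 (signalling), 2 to 3 (induction) and 0 to 4 (other precursors). The processing count of 1 became 2 in DESeq2 and 0 with library totals. The other precursor count of 1 became 2 in DESeq2, with library totals and with no filter, and 0 with a minimum of 10 counts. The cause was not tested.

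Whether the replicate numbers pair the samples cannot be settled from so few libraries per group. Deviations of same-numbered libraries correlated at 0.214, -0.143 and 0.0538. Library 1 correlated best with its own number, and libraries 2 and 3 did not. With the replicate block the processing count was 0, signalling 1 and other precursors 2, and *Gal* stood at 2.58 and *Galr1* at -1.14 (log2).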
